A study of Mus musculus with 30 samples.

Results

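The 6 genes described here, Mtmr9, Mtmr10, Mtmr11, Mtmr12, Sbf1 and Sbf2, encode the myotubularins of the mouse that lack phosphatase activity. They were chosen by their symbols among the 36103 genes of a deposited table of read counts, and all 6 were found there, each as a single protein-coding gene. Their levels were measured by RNA-seq in 4 tissues (gastrocnemius, a hindlimb muscle rich in fast fibres, diaphragm, heart and liver) of 5-week-old Mtm1-/y males, which carry a constitutive knock-out of Mtm1 in every tissue, and of their wild-type (WT) littermates. All mice were on a pure 129Pas background, and no mouse received a treatment. Each group has 4 libraries, except Mtm1-/y diaphragm and WT liver with 3. Per the study's methods, each of the 30 libraries is the whole-tissue RNA of 1 mouse, and whether tissues of the same mouse were sequenced is not given in the labels. In whole tissue, fewer cells of a type and less RNA per cell cannot be told apart.

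Myotubularins are phosphatases that remove a phosphate from phosphatidylinositol 3-phosphate (PI3P), a lipid that marks endosomes and autophagosomes, and from its doubly phosphorylated derivative. An active member attacks the phosphate with a cysteine and holds it with an arginine, which together form the ends of a short motif of the active site. The inactive members kept the phosphatase fold, lost these residues, and act mostly by binding an active partner, which they stabilise, relocate or stimulate. Mtmr12 is the adapter of myotubularin itself, the product of Mtm1. Sbf1, also called Mtmr5, and Sbf2, also called Mtmr13, bind Mtmr2 and in addition carry a DENN domain, which activates Rab GTPases. Loss of SBF2, SBF1 or MTMR2 causes demyelinating Charcot-Marie-Tooth neuropathy in people. Mtmr9 binds Mtmr6 and Mtmr7 and raises their activity. Less is known of Mtmr10 and Mtmr11.

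What sets the 6 genes apart can be read in their coding sequences. The stretch of 7 codons aligned with the active site motif is shown in the coding direction for all 6 and for Mtm1 and Mtmr2, 2 active phosphatases, with the codons aligned with the catalytic cysteine and the catalytic arginine in capitals.
Mtm1: TGCagtgacggatgggacAGG
Mtmr2: TGCagtgatggatgggatCGC
Mtmr9: GGGacagaaggaactgatTCC
Mtmr10: GAGgaggaaggcagagacTTG
Mtmr11: GAGcttggggatcgtgatTTC
Mtmr12: GAAgagaatgcttctgatCTC
Sbf1: CTGgaggacggctgggacATC
Sbf2: TTAgaagaaggctgggacATC

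A cysteine codon and an arginine codon stood at these ends in 8 of the 8 active family members, and neither stood there in any of the 6 inactive genes. The motif was placed at the cysteine and arginine of Mtm1 that the active members share most often. The 6 genes were chosen as inactive members. Both counts therefore describe the choice and test nothing. Sbf1 and Sbf2 end in the same codon here. In the mm10 genome the Mtm1 stretch lies at chrX:71299637-71299657 on the plus strand, in exon 11, and that of Mtmr2 at chr9:13799945-13799965 on the plus strand, in exon 11. The stretch of Mtmr9 lies at chr14:63529821-63529841 on the minus strand, in exon 7. Those of Sbf1, at chr15:89294412-89294432, and Sbf2, at chr7:110330619-110330639, are on the minus strand and both in exon 32. In the other three genes an intron splits the stretch between exons 12 and 13, all on the plus strand. It spans chr7:64321233-64326671 in Mtmr10, chr3:96168143-96168618 in Mtmr11 and chr15:12261911-12263744 in Mtmr12. Over whole translated coding sequences, Sbf1 and Sbf2 were identical at 59.7% of 1851 aligned positions and Mtmr10 and Mtmr12 at 41.4% of 700. Every other pair among the 6 was at or under 36.3%, the value for Mtmr10 and Mtmr11.

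The 6 genes lie on 4 chromosomes. Mtmr9 spans chr14:63519651-63543982 (minus strand), Mtmr10 chr7:64287653-64340806 (plus), Mtmr11 chr3:96162004-96171718 (plus), Mtmr12 chr15:12205028-12274496 (plus), Sbf1 chr15:89288236-89315311 (minus) and Sbf2 chr7:110308013-110614922 (minus). None shares exonic bases with a gene on its own strand. On the other strand, 37.8% of the exonic bases of Mtmr11 lie within exons of the antisense gene Gm17690, and 7.28% of those of Mtmr10 within exons of Gm20457 or Gm45212.

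The libraries hold 24873817 to 44289343 counts each. Mtm1, the deleted gene, had levels that did not overlap between the genotypes in any tissue. As CPM, a count divided by the library's size after TMM scaling, it lay between 20.8 and 22.3 in WT and between 4.31 and 5.75 in Mtm1-/y gastrocnemius. The diaphragm gave 16.1 to 24.4 and 3.68 to 4.19 CPM, the heart 21.1 to 26.9 and 3.49 to 4.11 CPM, and the liver 15.8 to 24.0 and 4.41 to 8.19 CPM. The diaphragm libraries carry liver RNA in unequal amounts. The 12 hepatocyte markers summed to 39987, 26871, 511 and 29824 CPM in the WT and to 3292, 51330 and 875 CPM in the Mtm1-/y diaphragm libraries, against 20.5 to 153 CPM in all gastrocnemius and heart libraries except WT heart 2, which had 8.12 CPM. The most abundant of them, albumin, averaged 13773 CPM in WT diaphragm and 121401 CPM in WT liver. In the muscles the fast fibre markers summed to 194884 to 233106 CPM in WT gastrocnemius, and in the heart the cardiomyocyte markers summed to 45550 to 67800 CPM in WT.

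The first comparison asks how WT tissues differ in their supply of inactive myotubularins. In RPKM, which divides the CPM by the length of the gene's merged exons, Sbf1 was the most abundant of the 6 in every WT tissue by this length. It stood at 13.8 ± 0.969 (SD, n = 4) in gastrocnemius, 9.87 ± 0.975 (n = 4) in diaphragm, 9.79 ± 0.221 (n = 4) in heart and 10.8 ± 0.254 (n = 3) in liver. Mtmr10 and Mtmr9 followed in the gastrocnemius, Mtmr10 at 4.11 to 5.38 (mean 4.49) and Mtmr9 at 3.51 to 4.07 (mean 3.77), so that the lowest library of the former lay just above the highest of the latter. Mtmr11, Mtmr12 and Sbf2 were the scarce members there by merged exons, at 1.81 ± 0.230, 1.38 ± 0.181 and 1.34 ± 0.105, and the values of Mtmr12 and Sbf2 overlapped between libraries. In the heart, Sbf2 reached 3.76 ± 0.318 and Mtmr12 2.44 ± 0.276, the latter overlapping Mtmr10 at 2.43 ± 0.172. The order of levels depends on the length used. With the length of a single transcript per gene, Mtmr9 stood at 12.3 ± 0.757 and Sbf1 at 11.9 ± 0.281 RPKM in WT liver, overlapping between libraries. In WT gastrocnemius that length gave Sbf2 2.77 ± 0.218 and Mtmr12 1.42 ± 0.186 RPKM, without overlap, and in WT heart it gave Mtmr10 3.67 and Mtmr12 2.52 RPKM.

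**Figure D1:**
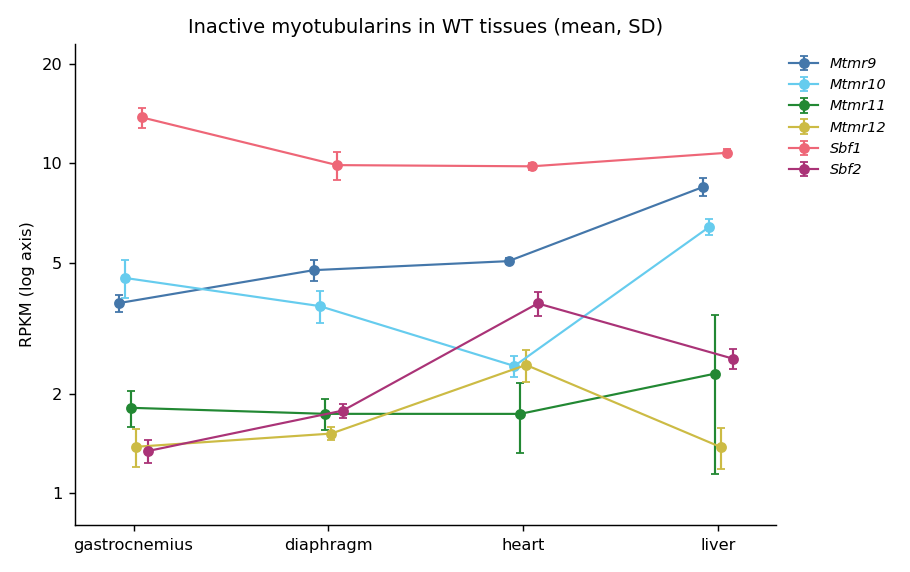
Mean RPKM by merged exons (log axis) of the 6 inactive myotubularin genes in the 4 WT tissues, with the SD between libraries as bars (n = 4, and 3 in the liver). Sbf1 lies above the other genes in every tissue by this length, Sbf2 and Mtmr12 peak in the heart, and Mtmr9 and Mtmr10 peak in the liver.

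Tissues were compared by edgeR's quasi-likelihood test in a single fit of the 15 WT libraries, with the Benjamini-Hochberg adjustment over the 17725 genes tested. Calls were made at an adjusted p under 0.05. Of the 36 pairings of a gene with 2 tissues, 23 were called. The calls numbered 4 of 6 for diaphragm against gastrocnemius, where 54.4% of all genes tested were called, 5 for heart against gastrocnemius (61.3%), 4 for liver against gastrocnemius (79.5%), 3 for heart against diaphragm (51.7%), 3 for liver against diaphragm (76.1%) and 4 for liver against heart (76.4%). A log2 difference over 1 was passed as well by 0 of 6 for diaphragm against gastrocnemius (26.8% of all genes), 1 for heart against gastrocnemius (32.0%), 1 for liver against gastrocnemius (56.7%), 1 for heart against diaphragm (27.0%), 0 for liver against diaphragm (50.0%) and 1 for liver against heart (52.8%). With 6 genes, a single call shifts the share called widely. Whether it departed from that of all genes was not tested.

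Sbf2, the Rab-activating partner of Mtmr2, differed most. The heart libraries held 55.4, 60.3, 57.3 and 49.2 CPM, above the liver at 34.8, 38.5 and 40.1 CPM, the diaphragm at 26.4, 25.5, 28.0 and 25.2 CPM, and the gastrocnemius at 21.8, 18.1, 20.1 and 19.3 CPM. No 2 tissues overlap, and all 6 pairs were called. The heart exceeded the gastrocnemius by 1.45 on the log2 scale (SE 0.0814, adjusted p = 3.61e-09) and the diaphragm by 1.07 (SE 0.0803, adjusted p = 1.22e-07), and the liver exceeded the gastrocnemius by 0.85 (SE 0.0860, adjusted p = 4.64e-07).

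Sbf1, its close relative, ran the other way. The WT gastrocnemius held 97.7, 95.2, 84.3 and 98.7 CPM, above every WT library of the diaphragm (59.0 to 75.3 CPM), heart (64.6 to 67.7 CPM) and liver (71.4 to 74.7 CPM). Against the gastrocnemius its log2 difference was -0.51 for the diaphragm (SE 0.0789, adjusted p = 0.000104), -0.53 for the heart (SE 0.0790, adjusted p = 4.88e-05) and -0.43 for the liver (SE 0.0859, adjusted p = 0.000341). The other three tissues did not pass the test against each other. With libraries scaled by their totals alone, the values of Sbf1 became 0.009 for the diaphragm and 0.068 for the heart. That scaling set the median of all genes at 0.589 and 0.666, so that Sbf1 stood 0.58 and 0.60 below the median gene under it, as it did with TMM. The ratio of Sbf1 to Sbf2 RPKM by merged exons ran from 9.09 to 11.4 in WT gastrocnemius, from 5.06 to 5.82 in diaphragm, from 3.86 to 4.61 in liver and from 2.43 to 2.98 in heart, and no 2 of these tissues overlap. By the length of a single transcript it ran from 4.87 to 6.10, from 2.71 to 3.12, from 2.07 to 2.47 and from 1.30 to 1.60 in the same order. That length multiplies the ratio by a fixed factor, so that the lack of overlap follows and is no second check.

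Mtmr12, the adapter of myotubularin, was the other gene with its highest level in the heart. Its WT heart libraries held 16.5, 15.9, 16.4 and 20.1 CPM, and all other WT libraries lay between 8.22 and 11.3 CPM. The heart exceeded the gastrocnemius by 0.79 (SE 0.114, adjusted p = 3.74e-05) and the diaphragm by 0.69 (SE 0.113, adjusted p = 0.000197), and the liver was below the heart by a log2 difference of -0.87 (SE 0.126, adjusted p = 1.95e-05). The gastrocnemius, diaphragm and liver did not pass the test against each other.

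Mtmr9 and Mtmr10 were highest in the liver. Mtmr9, the activator of Mtmr6 and Mtmr7, held 31.0, 30.2 and 33.9 CPM in WT liver, above the heart at 19.1, 18.5, 19.3 and 18.6 CPM, and the heart did not pass the test against the diaphragm. The liver exceeded the gastrocnemius by 1.09 (SE 0.0800, adjusted p = 1.84e-08). Mtmr10 held 49.6, 53.6 and 48.1 CPM in the liver and 19.0, 20.7, 19.3 and 17.4 CPM in the heart, its lowest tissue. The liver exceeded the heart by 1.36 (SE 0.112, adjusted p = 6.76e-08), the gastrocnemius by 0.44 (SE 0.111, adjusted p = 0.00236) and the diaphragm by 0.75 (SE 0.111, adjusted p = 3.10e-05), and all 6 pairs of tissues were called.

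For the diaphragm, values rest on libraries that hold liver RNA. With WT diaphragm library 3 alone standing for the tissue, the sample with 511 CPM of hepatocyte markers, whose spread was taken from the other tissues, 19 of 36 pairings were called. Over all genes, calls in that fit went from 9645 to 4165 for diaphragm against gastrocnemius and from 9158 to 4417 for heart against diaphragm. Against the gastrocnemius, Mtmr9 then had a log2 difference of 0.19 (adjusted p = 0.289) in place of 0.30 (SE 0.0748, adjusted p = 0.00374), Mtmr10 -0.23 (adjusted p = 0.333) in place of -0.32 (SE 0.104, adjusted p = 0.0189) and Sbf1 -0.31 (adjusted p = 0.0806), while Sbf2 had 0.51 (adjusted p = 0.0160) in place of 0.37 (SE 0.0802, adjusted p = 0.00131). The heart against diaphragm value of Mtmr12 was 0.63 (adjusted p = 0.0515). The call of Mtmr10 for diaphragm against gastrocnemius was also lost without WT gastrocnemius 1 (adjusted p = 0.0701), diaphragm 3 (0.0979) or 4 (0.205), or heart 1 (0.0858) or 4 (0.0688).

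Mtmr11 was called in none of its 6 WT tissue pairs by edgeR, with unadjusted p from 0.221 to 0.989. Its WT liver libraries lay far apart, at 10.2, 12.1 and 3.78 CPM, and the other tissues lay between 5.48 and 8.83 CPM. The 95% interval of liver against heart ran from -0.25 to 1.00 on the log2 scale. Without WT liver library 3, the lowest, Mtmr11 was called higher in the liver than in all 3 other tissues, by 0.63 on the log2 scale against the gastrocnemius (SE 0.191, adjusted p = 0.00863), 0.73 against the diaphragm (SE 0.190, adjusted p = 0.00420) and 0.73 against the heart (SE 0.191, adjusted p = 0.00372).

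The second comparison asks what the loss of Mtm1 does to its inactive relatives, tissue by tissue. In the gastrocnemius Mtmr11 and Mtmr9 rose and Mtmr10 and Sbf1 fell, while Mtmr12 and Sbf2 did not pass the test. These are 4 of 6 genes called by edgeR, where 29.0% of the 15456 genes tested were called, 14.1% upward and 14.9% downward. The same 4 had an unadjusted p under 0.05, against 41.6% of all genes. DESeq2 called 3 of 6, without Mtmr9, against 25.7% of all genes. The genotypes did not overlap for the same 4 genes, against 30.5% of all genes, and none of the 4 passed a log2 fold change of 1, against 6.63%. The median log2 fold change was 0.12 over the 6 genes and 0.016 over all genes.

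**Figure D2:**
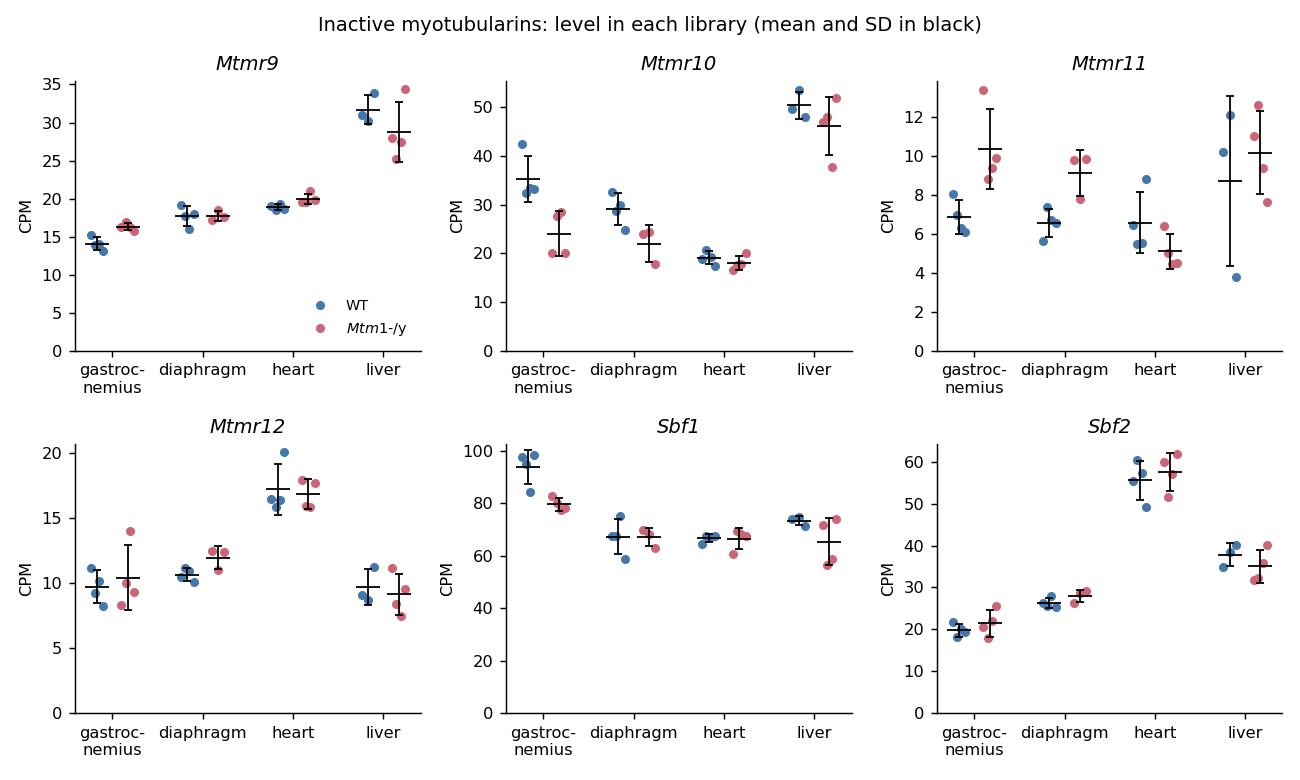
Level in CPM (linear axes from 0) of each inactive myotubularin gene in every library, WT in blue and Mtm1-/y in red, with the mean and SD in black. In the gastrocnemius the genotypes separate for Mtmr9, Mtmr10, Mtmr11 and Sbf1, and in the diaphragm for Mtmr10 and Mtmr11.

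Mtmr11 had the largest rise. Its WT gastrocnemius libraries held 8.04, 6.95, 6.32 and 6.09 CPM and its Mtm1-/y libraries 13.4, 8.83, 9.39 and 9.91 CPM. Every Mtm1-/y value was above every WT value. The log2 fold change was 0.61 (SE 0.150, adjusted p = 0.0132), 52.9% higher, and the call held when any of the 8 libraries was left out, with fold changes of 0.47 to 0.70. The counts behind it were 174 to 515 per library, and the antisense gene Gm17690 had 51 to 158 counts and a change of 0.30 on the log2 scale (SE 0.224, adjusted p = 0.338). Over all libraries, 121 genes that lie wholly within exons of an abundant gene on the opposite strand carried counts of their own, with a median of 10 counts summed over the libraries. Union counting without strand leaves such reads out as ambiguous, and the strand setting is not given in the sources used here.

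Mtmr10 had the largest fall. Its WT libraries held 42.4, 32.3, 33.5 and 33.2 CPM and its Mtm1-/y libraries 20.1, 27.6, 28.4 and 20.1 CPM. The genotypes did not overlap, and WT library 1 stood well above the other three. The log2 fold change was -0.54 (SE 0.143, adjusted p = 0.0188), a change of -31.3%. Without Mtm1-/y library 1 the adjusted p was 0.0515, and without any other library the call held.

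Sbf1 and Mtmr9 changed less. Sbf1 held 97.7, 95.2, 84.3 and 98.7 CPM in WT and 82.8, 80.1, 77.4 and 78.3 CPM in Mtm1-/y gastrocnemius, without overlap, a change of -0.22 on the log2 scale (SE 0.0635, adjusted p = 0.0260). Its call was lost without WT library 1, 2 or 4 or Mtm1-/y library 2, 3 or 4, with adjusted p of 0.0579 to 0.0690. Mtmr9 held 15.2, 13.9, 14.0 and 13.1 CPM in WT and 16.3, 16.9, 16.2 and 15.8 CPM in Mtm1-/y, also without overlap, a change of 0.22 on the log2 scale (SE 0.0730, adjusted p = 0.0443). DESeq2 gave it an adjusted p of 0.0611, and its call was lost without any single library except WT library 1, with adjusted p of 0.0552 to 0.115.

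Mtmr12, the partner that the missing protein would bind, held 11.2, 9.27, 10.2 and 8.22 CPM in WT and 8.33, 10.0, 14.0 and 9.30 CPM in Mtm1-/y gastrocnemius. The genotypes overlapped, and the 95% interval of its log2 fold change of 0.11 (adjusted p = 0.654) ran from -0.27 to 0.49. Without Mtm1-/y library 3, the highest, the value was -0.061. Sbf2 held 21.8, 18.1, 20.1 and 19.3 CPM in WT and 20.5, 18.0, 22.0 and 25.6 CPM in Mtm1-/y, overlapping as well, with a log2 fold change of 0.13 (95% interval -0.12 to 0.38, adjusted p = 0.405).

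Marker lists of several cell types, that of the muscle's own fast fibres among them, moved with genotype in the same libraries. The 10 macrophage markers all rose and summed to 58.8 to 101 CPM in WT and 175 to 219 CPM in Mtm1-/y, led by Lyz2 and, in Mtm1-/y, Csf1r. Of 9 white adipocyte markers 6 rose, though their sum, led by Plin4 and Fabp4, was 612 to 1013 CPM in WT and 648 to 1150 CPM in Mtm1-/y. Of 10 fast fibre markers 8 fell and 2 rose, with sums of 194884 to 233106 and 118969 to 143907 CPM. Of the fibroblast markers 4 of 7 rose, of the endothelial markers 3 of 6 fell, and of the 12 Schwann cell markers none passed the test by edgeR. Of the 5 cardiomyocyte markers tested 3 rose and 1 fell, and the sum of the list, led by Actc1 and Myh6, was 6818 to 7792 CPM in WT and 655 to 2514 CPM in Mtm1-/y. Of the 10 markers of that list, 2 were at 0 in every WT and 1 in every Mtm1-/y library, and no marker of the other lists of this paragraph was. With the adipocyte marker mean as a covariate, all 6 genes had an adjusted p over 0.05 by edgeR. The calls over all genes went from 4479 to 1517 in that fit. Mtmr11 then had a log2 fold change of 0.61 (SE 0.249, against 0.150 without the covariate, adjusted p = 0.161). Mtmr10 had -0.46 (SE 0.218 against 0.143, adjusted p = 0.225), Mtmr9 0.31 (SE 0.108 against 0.0730, 0.114) and Sbf1 -0.29 (SE 0.0929 against 0.0635, 0.0866). The covariate, a mean log2 CPM, was 3.85, 3.42, 3.18 and 4.69 in WT and 4.88, 4.26, 5.08 and 5.25 in Mtm1-/y. As it largely followed genotype, this fit tells the effects of covariate and genotype apart poorly. The part of the other cell types in these values was not tested.

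**Figure D3:**
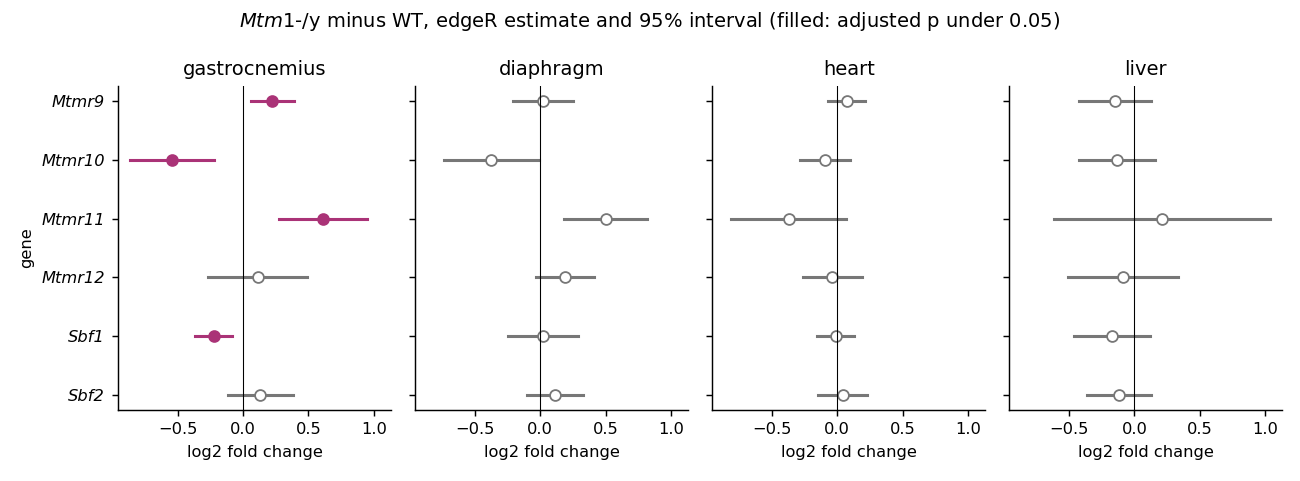
Log2 fold change of Mtm1-/y against WT in each tissue (points, edgeR) with the 95% interval (lines), filled in purple at an adjusted p under 0.05 and open in grey otherwise. The filled points are 4 genes of the gastrocnemius, Mtmr9 and Mtmr11 to the right of 0 and Mtmr10 and Sbf1 to the left.

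In the diaphragm none of the 6 genes was called by edgeR, where 0.0119% of 16796 genes were, or by DESeq2, against 2.37%. At an unadjusted p under 0.05, 2 of 6 passed, against 10.8% of all genes, and the same 2 did not overlap between genotypes, against 9.93%. Mtmr11 held 5.65, 7.36, 6.72 and 6.54 CPM in WT and 9.78, 7.78 and 9.86 CPM in Mtm1-/y, a change of 0.50 on the log2 scale (SE 0.135, adjusted p = 0.293). Mtmr10 held 32.7, 28.8, 29.9 and 24.8 CPM in WT and 24.0, 24.4 and 17.7 CPM in Mtm1-/y, a change of -0.38 on the log2 scale (SE 0.154, adjusted p = 0.449). With the hepatocyte marker mean as a covariate the values were 0.46 (adjusted p = 0.185) and -0.36 (adjusted p = 0.311). The remaining genes had log2 fold changes of 0.019 for Sbf1, 0.024 for Mtmr9, 0.11 for Sbf2 and 0.19 for Mtmr12, and their 95% intervals included 0. The interval of Mtmr12, from -0.031 to 0.41, was the one nearest to leaving it out. In the same libraries the fibroblast markers summed to 1967 to 4090 CPM in WT and 4206 to 8579 CPM in Mtm1-/y, and the endothelial markers to 480 to 575 and 418 to 467 CPM. Neither overlapped between genotypes, 0 of 7 and 0 of 6 markers were called by edgeR, and their part in the values of the 6 genes was not tested.

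In the heart none was called by edgeR (0.00656% of 15238 genes) or DESeq2 (0.453%), and none had an unadjusted p under 0.05, against 8.88% of all genes. Mtmr9 was the only gene without overlap, against 4.17% of all genes, at 19.1, 18.5, 19.3 and 18.6 CPM in WT and 19.5, 19.5, 20.9 and 19.8 CPM in Mtm1-/y, with a log2 fold change of 0.072 (95% interval -0.071 to 0.21). Mtmr11 held 6.43, 5.48, 5.52 and 8.83 CPM in WT and 6.42, 5.02, 4.46 and 4.52 CPM in Mtm1-/y, overlapping, with a log2 fold change of -0.37 (95% interval -0.81 to 0.068, adjusted p = 0.549). The mean log2 CPM of the white adipocyte markers was 4.74, 3.74, 3.74 and 4.91 in the same WT libraries and 2.76, 2.77, 1.97 and 2.64 in Mtm1-/y, without overlap, and 0 of 9 markers were called by edgeR. With that mean as a covariate Mtmr11 had a log2 fold change of 0.45 (SE 0.315, against 0.195 without the covariate, adjusted p = 0.998). As the covariate did not overlap between genotypes, its effect and that of genotype cannot be told apart in this fit. The intervals of Mtmr12 (-0.26 to 0.19), Sbf1 (-0.15 to 0.13) and Sbf2 (-0.14 to 0.23) included 0, and that of Mtmr10 ran from -0.28 to 0.10.

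In the liver none was called by edgeR, which called 0 of the 14305 genes tested, or by DESeq2 (0.163%), and none passed at an unadjusted p under 0.05, against 4.24% of all genes. No gene separated the genotypes, against 5.56% of all genes. Log2 fold changes ran from -0.17 for Sbf1 to 0.21 for Mtmr11, whose interval was the widest, from -0.62 to 1.04. Mtmr11 held 10.2, 12.1 and 3.78 CPM in WT and 11.0, 12.6, 9.37 and 7.66 CPM in Mtm1-/y liver.

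Whether the effect of genotype differed between tissues was tested directly, as a contrast within an edgeR fit of both tissues. Of the 36 differences, 6 genes by 6 pairs of tissues, 1 was called, and 5 had an unadjusted p under 0.05. By that criterion 3 of 6 passed for heart and gastrocnemius, against 34.7% of all genes, 1 of 6 for liver and gastrocnemius (22.3%) and for heart and diaphragm (10.6%), and 0 of 6 for diaphragm and gastrocnemius (12.8%), liver and diaphragm (5.12%) and liver and heart (5.56%). The called difference was that of Mtmr11 in heart and gastrocnemius, where 19.8% of 16627 genes were called. Its change was lower in the heart by a log2 difference of -0.97 (SE 0.252, 95% interval -1.50 to -0.43, adjusted p = 0.0155), and the call held when any of the 16 libraries was left out. The part of the adipocyte markers in this difference was not tested. For Mtmr10 the same pair differed by 0.47 (SE 0.174, adjusted p = 0.0704) and for Sbf1 by 0.23 (SE 0.0884, adjusted p = 0.0803), and DESeq2 called both, at adjusted p of 0.0276 and 0.00941. For Mtmr11 heart and diaphragm differed by -0.86 (SE 0.252, adjusted p = 0.257), and for Mtmr9 liver and gastrocnemius by -0.34 (SE 0.135, adjusted p = 0.151). Between diaphragm and gastrocnemius no gene had an unadjusted p under 0.05 by edgeR, and 0.280% of all genes were called. The background of liver and gastrocnemius was 6.34%, that of heart and diaphragm 0.00573%, and no gene at all was called between the liver and the heart or the diaphragm.

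Inactive and active members were also set against each other. Summed over the family in RPKM, the inactive genes made up 30.1% ± 2.12 (SD, n = 4) of the WT gastrocnemius total, 34.1% ± 0.367 (n = 4) of the diaphragm, 36.3% ± 0.479 (n = 4) of the heart and 36.2% ± 0.743 (n = 3) of the liver. With the length of a single transcript per gene in place of merged exons the shares were 25.0%, 30.0%, 32.6% and 35.4%. The gastrocnemius had the lowest mean under both lengths. In Mtm1-/y the shares were 33.2% ± 1.30, 35.1% ± 2.28, 36.3% ± 1.36 and 34.7% ± 2.22 by merged exons, overlapping WT in all 4 tissues. The family total holds Mtm1, the deleted gene, and its fall by itself raises the share in Mtm1-/y.

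For Mtmr12 and its partner the ratio of RPKM by merged exons in WT came to 0.907 ± 0.114 in gastrocnemius, 1.11 ± 0.155 in diaphragm, 1.50 ± 0.281 in heart and 1.01 ± 0.253 in liver. In Mtm1-/y it was 4.17 ± 1.18, 5.96 ± 0.0946, 8.70 ± 0.695 and 2.87 ± 0.606. By the length of a single transcript the WT means were lower, at 0.234, 0.287, 0.387 and 0.260, and those of Mtm1-/y were 1.07, 1.54, 2.24 and 0.739. The genotypes did not overlap in any tissue. The divisor is the deleted gene, whose own levels did not overlap either, and a change of length multiplies this ratio by a fixed factor. The separation is therefore no evidence of a change in Mtmr12, which did not pass the test in any tissue. By edgeR Mtm1 was called lower in each tissue but the liver (adjusted p = 0.365). For Sbf1 and Sbf2 together against Mtmr2, the ratio was 3.47 ± 0.360 in WT and 3.54 ± 0.266 in Mtm1-/y gastrocnemius by merged exons, and 3.19 and 3.32 by a single transcript. Sbf1 and Mtmr2 both fell there, Mtmr2 by 0.22 on the log2 scale (SE 0.0728, adjusted p = 0.0466). Mtmr9 against the sum of Mtmr6 and Mtmr7 ran from 0.181 ± 0.0166 in WT to 0.258 ± 0.0182 in Mtm1-/y gastrocnemius, without overlap, and from 0.117 to 0.167 by a single transcript, where Mtmr9 rose and Mtmr6 fell by 0.29 (SE 0.0681, adjusted p = 0.0103).

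**Figure D4:**
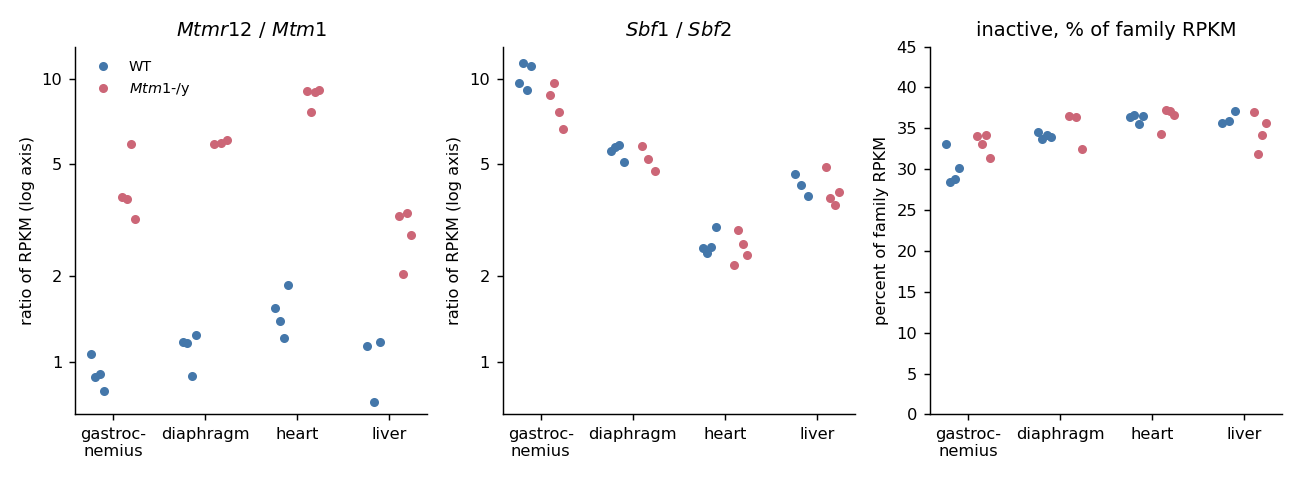
RPKM here is by merged exons. Ratio of Mtmr12 to Mtm1 RPKM (left, log axis), ratio of Sbf1 to Sbf2 RPKM (middle, log axis) and share of the inactive genes in the family's summed RPKM (right, linear axis from 0), each point a library, WT in blue and Mtm1-/y in red. The genotypes separate in all 4 tissues for the ratio to Mtm1, the deleted gene, and overlap for the share of inactive genes. The ratio of Sbf1 to Sbf2 falls from the gastrocnemius to the heart.

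Around the 6 genes, the wider pathway was read from written lists. In the gastrocnemius, of the 8 active myotubularins 5 fell, among them Mtm1, Mtmr3 by 0.40 (SE 0.0709, adjusted p = 0.00265) and Mtmr6, and 1, Mtmr7, rose by 0.81 (SE 0.261, adjusted p = 0.0433), from 0.350 to 0.574 CPM in WT to 0.571 to 0.894 CPM. Mtmr7 was named after its values were seen. These are 6 of 8 called, against 29.0% of all genes. Of the 6, 1 is Mtm1, the deleted gene, whose fall follows from the knock-out. The count is therefore no independent sign of a change in the list. The median log2 fold change of the list, Mtm1 included, was -0.246, against 0.016 over all genes. The list of lipid kinases that make or use PI3P also holds other proteins of their complexes, and 11 of its genes were tested. Vac14, the scaffold of the PIKfyve kinase, was the single member that passed, with a rise of 0.60 (SE 0.0937, adjusted p = 0.00145). The share of 1 of 11 is below the 29.0% of all genes. Of 18 other proteins with a DENN domain, 1 rose and 5 fell, a share near the 29.0% of all genes, with Dennd4b at -0.82 (SE 0.0751, adjusted p = 0.000150), Dennd4c at -0.59 (SE 0.0925, adjusted p = 0.00147) and Dennd1b at -0.48 (SE 0.0846, adjusted p = 0.00265), and the median was 0.031. Dennd1c was the member that rose, by 1.40 (SE 0.259, adjusted p = 0.00344), and it too was named after its values were seen. Of the Rab GTPases that Sbf1 and Sbf2 act on, Rab28, the target of Sbf1, fell by 0.35 (SE 0.0802, adjusted p = 0.00995), and Rab21, that of Sbf2, had a log2 fold change of 0.044 (adjusted p = 0.661). In the other tissues Mtm1 was the sole gene of these lists called by edgeR, in the diaphragm and the heart, and none was called in the liver, where Mtm1 had an adjusted p of 0.365 by edgeR and of 1.23e-06 by DESeq2.

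Across the 30 libraries, the protein-coding genes with the pattern closest to each inactive myotubularin were named by Pearson's r of log2 CPM among 11714 candidates. These r are descriptions, and the libraries share tissues, so that they mostly reflect levels that differ between tissues. Sbf2 ran closest to Magi3 (0.975), Pkp2 (0.967) and Rock1 (0.964), and Mtmr9 to Srbd1 (0.974), Abhd17c (0.963) and Actr2 (0.963). Mtmr10 ran closest to Slc38a4 (0.933), Pon3 (0.932) and Zhx1 (0.931), and Mtmr12 to Ednra (0.914), Casp2 (0.911) and Tfpi (0.910). Sbf1 ran closest to Stat5b (0.870), Jak1 (0.863) and Ercc6l2 (0.862). Mtmr11 had the lowest best match, Kctd7 at 0.727, followed by Pon2 (0.723) and Psat1 (0.709). Between the 6 genes themselves, r over the 30 libraries was 0.690 for Sbf2 and Mtmr12 and -0.587 for Sbf1 and Sbf2, and within the 8 groups, after subtracting each group's mean, 0.0496 and 0.0593.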

How the data were processed

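The deposited values are raw read counts per gene, which the authors made by trimming with cutadapt 1.10, aligning to mm10 with STAR 2.5.3a and counting uniquely aligned, unambiguous reads with htseq-count 0.6.1p1 in union mode on Ensembl annotation. Libraries came from poly(A) RNA with a stranded kit. All further values were computed in R 4.3.3. Symbols were taken from an annotation table by Ensembl identifier, and all 36103 identifiers matched. Genotypes were compared per tissue with edgeR 4.0.16 (quasi-likelihood F test, filterByExpr at a count minimum of 10, TMM, Benjamini-Hochberg adjustment over all genes tested), WT tissues in a fit of 15 libraries, and genotype effects of 2 tissues in fits of both. Calls used an adjusted p under 0.05. P-values set a difference against the spread between libraries. The fits of several tissues treated libraries as independent, though the labels do not say whether tissues of the same mouse are among them. DESeq2 1.42.0, limma 3.58.1 voom, DESeq2's size factors, library totals, no filter, a replicate block, marker covariates, other sets of libraries and leaving out each library were alternatives. Replicate libraries all differed by more than sampling noise. RPKM used merged GENCODE M21 exons, and log2 CPM a prior count of 2. Coding sequences came from the same annotation and were translated and aligned, and the files given hold no protein table. Fits were tested on simulated data with planted changes larger than the genotype effects called here, so that those tests do not cover effects of this size. All 6 genes are named everywhere, other genes by list, up to 3 per list and tissue by smallest p, the 2 most abundant markers of a list, and the 3 closest by r. The members and lists were chosen with earlier results of these data known.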

Additional observations from a re-analysis of the deposited data

Results flagged for a closer look

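In groups of 4 libraries, the highest or lowest library was set against the range of the group (Dixon's criterion at 95%), over 36 combinations of gene and group, and 3 libraries stood apart, where chance gives about 1 in 20. They were WT gastrocnemius 1 for Mtmr10, at 42.4 CPM, WT heart 4 for Mtmr12, at 20.1 CPM, and WT heart 1 for Sbf1, at 64.6 CPM. Without WT gastrocnemius 1 the fall of Mtmr10 in Mtm1-/y gastrocnemius was -0.44 on the log2 scale and still called. Without WT heart 4 the log2 fold change of Mtmr12 in the heart was 0.049.

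The effect of genotype on Mtmr11 differed between heart and gastrocnemius by -0.97 on the log2 scale (edgeR contrast, SE 0.252, adjusted p = 0.0155). All 4 Mtm1-/y gastrocnemius libraries lay above the 4 WT libraries, and the genotypes overlapped in the heart. In the fit of all 30 libraries the difference was -0.96 with an adjusted p of 0.0689.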

How the results depend on the processing

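In the gastrocnemius, where 4 of 6 genes were called, the count was 2 without the low-count filter, 1 (Mtmr10) in a fit of all 30 libraries, 0 with the white adipocyte marker mean as a covariate, 0 with a log2 fold change over 1 required, and 2 to 3 with single libraries left out. Over all genes, the 4479 calls became 3735 without the filter, 2925 in the fit of all 30 libraries, 1517 with the covariate, 1024 with the fold required, and 3324 to 4280 with single libraries left out. The replicate block, the fit with the replicate number as a term, gave 3, losing Mtmr9 (log2 fold change 0.23, adjusted p = 0.0767). It gave 23 WT pairings and 1 difference of genotype effects. Same-numbered libraries of the 2 genotypes deviated together by r of -0.62 to 0.38, over 0.1 in 5 of 14 pairs, and 6 of 14 correlated best with their own number. Between tissues, 10 of 21 WT and 9 of 21 Mtm1-/y pairs of same-numbered libraries did so. These values cannot decide whether the numbers pair the mice, and the main fits treated all libraries as independent. The WT count of 23 was 4 with a log2 difference over 1 required. The single called difference of genotype effects became 3 with DESeq2's size factors, 3 with DESeq2 and 0 in the fit of all 30 libraries, and was 1 to 2 with single libraries left out, 2 without WT gastrocnemius 3, Mtm1-/y gastrocnemius 2 or 3. For the replicate block and for the differences of genotype effects, the calls over all genes under each setting are not given here. Those counts therefore cannot be set against the shift of all genes. The cause of these changes was not tested.

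Among genotype effects, signs turned for log2 fold changes that had not passed the test. Under library totals alone 4 called and 8 uncalled WT differences turned, and 0 did relative to the median of all genes, which that scaling moves. With the adipocyte covariate Sbf2 was -0.026 in the gastrocnemius, and in the heart Mtmr11 was 0.45, Mtmr12 0.29 and Sbf2 -0.15. In the heart that covariate did not overlap between genotypes, so that its effect and that of genotype cannot be told apart there. In the diaphragm Mtmr9 was -0.019 with the replicate block and -0.040 with voom, and Sbf1 -0.0034 in the fit of all 30 libraries. In the heart Mtmr12 was 0.029 with voom. Library totals alone gave Mtmr10 0.20 and Sbf1 0.0090 for diaphragm against gastrocnemius, Sbf1 0.068 for heart against gastrocnemius and Sbf2 -0.00044 for liver against diaphragm. Leaving out single libraries moved Mtmr12 from -0.061 to 0.21 in the gastrocnemius, from -0.079 to 0.049 in the heart and from -0.22 to 0.026 in the liver. It moved Mtmr9 from -0.019 to 0.066 and Sbf1 from -0.039 to 0.098 in the diaphragm, Sbf1 from -0.030 to 0.026 and Sbf2 from -0.0068 to 0.097 in the heart, and Mtmr11 from -0.15 to 0.52 in the liver. The fits that leave out WT diaphragm 1, 2 and 4 and the single-transcript lengths were chosen after seeing the data. Mtmr11 had 78 to 527 counts per library.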
